A study of Mus musculus with 12 samples.

Results

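The replication-dependent histone genes of the mouse were followed through blastocysts of 6 groups. Members were all genes of the deposited tables named Hist1h, Hist2h, Hist3h or Hist4h that reached a summed expected count of 60 over the 12 libraries. Of 24411 genes in the tables, 68 carried such a name and 58 reached that count. They comprised 6 of 6 H1 genes, 15 of 18 H2A genes, 16 of 19 H2B genes, 11 of 12 H3 genes and 10 of 13 H4 genes. The members nearest the limit on its inner side were Hist1h4k (67.4 counts), Hist1h2ah (67.6) and Hist1h2af (72.7), and those nearest on its outer side were Hist2h2ab (49), Hist1h2bf (40.2) and Hist1h2aa (35).

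The histones H2A, H2B, H3 and H4 form the core of the nucleosome, and H1 binds the linker DNA between nucleosomes. Replication-dependent histone genes are intronless for the most part, lie in clusters, and supply histones while DNA is copied. Their mRNAs are unusual in that they end in a conserved stem-loop bound by SLBP instead of a poly(A) tail, although polyadenylated forms of some of them are known. Cells that leave the cycle rely on replacement histones such as H3.3 and H2A.Z, whose mRNAs are polyadenylated.

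Each library was made from a pool of 10 blastocysts (ICR, an outbred mouse stock, wild type), obtained by fertilization in vitro and cultured in KSOM until 96 hours after insemination (hpi). The groups were HFD_siNampt, HFD_siNT, HFD_C, ND_siNampt, ND_siNT and ND_C, with 2 libraries each. HFD and ND are not spelled out in the labels, and the series title speaks of obese and normal weight mice. siNampt is an siRNA against Nampt, the rate-limiting enzyme of NAD synthesis from nicotinamide. siNT is a non-targeting siRNA, and both were electroporated into one-cell embryos between 3 and 6 hpi. C is a control, and the sources used here do not say whether those embryos were electroporated. The replicate number equals the batch tag of the labels in all groups, and separate matings per pool are not stated, so p-values measure the spread between pools.

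The libraries were of poly(A) RNA and held 42473129 to 50503064 expected counts. The members made up 0.0259% to 0.0439% of these counts. Nampt stood at 50.3 and 44.0 CPM in HFD_siNampt, 61.3 and 66.0 CPM in HFD_siNT and 67.0 and 57.3 CPM in HFD_C, and in ND at 53.9 and 37.7 CPM with siNampt, 74.6 and 49.4 CPM with siNT and 54.2 and 38.2 CPM in C (CPM is the count scaled to library size, given for replicates 1 and 2). It was lower with siNampt than with siNT in every pair of the same diet and replicate number. Its log2 difference was -0.43 (SE 0.17, edgeR unadjusted p = 0.0217, adjusted p = 0.396). The knockdown thus did not pass the test across all genes, of which 11.2% had an unadjusted p under 0.05. Against C its log2 difference was -0.21 (SE 0.17, edgeR unadjusted p = 0.234, adjusted p = 0.999). With siNampt it lay below both C libraries in HFD but near C in ND. Marker sums were 4205 to 6857 CPM for 6 trophectoderm genes, 99.6 to 178 CPM for 5 genes of the inner cell mass and 185 to 290 CPM for 5 primitive endoderm genes. In ND the trophectoderm sum was 6857 and 6356 CPM in siNampt against 4765 and 4205 CPM in siNT, and in HFD it was 4698 and 6010 CPM in siNampt against 4788 and 4981 CPM in siNT; its part in the results below was not tested. Sums of cumulus, sperm and oocyte markers were at most 3.53, 2.62 and 5.65 CPM. In such pools, fewer cells of a type and less RNA per cell cannot be told apart.

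The end of the mRNA is shown first, because the libraries were made from poly(A) RNA. The stem-loop was searched downstream of the stop codon as the arms GGNNCT and AGNNCC around the loop TNTN, with all 6 bases of each arm paired, in the GENCODE M21 transcripts (GRCm38, the assembly also called mm10). It was present in 39 of the 58 members (67.2%), each searched in a single chosen transcript. Of all protein-coding genes 0.251% had it, by a looser rule that took a match anywhere in any protein-coding transcript. A match is a description and not a proof of use. Of the 19 members without a match, 12 have GENCODE models that end within 15 bases of the stop codon, so the search could not reach their 3′ ends. The sequences below show the 4 commonest forms and the members on which the results turn, with the stem-loop in capitals and the flanking bases in lower case.
Hist1h2ap (H2A): aaaaaaaaaGGCTCTTTTCAGAGCCatc
Hist1h2ao (H2A): aaaaaaaaaGGCTCTTTTCAGAGCCatcca
Hist1h2bk (H2B): agcaccaaaGGCTCTTTTAAGAGCCactaa
Hist1h3c (H3): ttaaaaaaaGGCTCTTTTAAGAGCCaccta
Hist1h4d (H4): aaaaccaaaGGCCCTTTTCAGGGCCactac
Hist1h4n (H4): tcaactaaaGGCCCTTTTCAGGGCCatcca
Hist2h4 (H4): atccctaacGGCCCTTTTTAGGGCCaacca

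The stem-loops printed lie at chr13:21833029-21833044 (- strand) for Hist1h2ap, chr13:21810898-21810913 (+) for Hist1h2ao, chr13:22036300-22036315 (+) for Hist1h2bk, chr13:23745047-23745062 (-) for Hist1h3c, chr13:23581950-23581965 (+) for Hist1h4d and chr3:96262939-96262954 (-) for Hist2h4. The form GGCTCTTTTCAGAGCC was held by 22 members, 3 of them H1, 9 H2A, 6 H2B and 4 H3 genes. The form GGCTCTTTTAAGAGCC was held by 6 members of H1, H2B and H3. The forms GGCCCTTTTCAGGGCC and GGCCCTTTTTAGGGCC were held by 5 and 2 members, all of H4. In 37 of the 39 members the RefSeq gene ended within 50 bases of the stem-loop, and the median distance was 5 bases. The GENCODE models that were searched reached further, and in 24 of the 39 they ran over 50 bases past the stem-loop. The run of A directly upstream differed between members: within the 9 bases before the stem-loop the longest run was 9 bases in Hist1h2ap and Hist1h2ao, 7 in Hist1h3c and 2 to 5 in the others. From the transcript's start to the stem-loop, the longest A run was 12 bases in both Hist1h2ap and Hist1h2ao and 8 bases or fewer in the others.

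Levels were very unequal between members. All levels here are of RNA recovered in poly(A) libraries, and how far they stand for all histone mRNA of the embryos was not tested. On the TPM scale, which divides by length and so lets genes be compared, Hist1h2ap averaged 655 TPM (SD 131, lowest 485, highest 927, n = 12 libraries) and Hist1h2ao 301 TPM (SD 68.7, lowest 215, highest 442). These 2 replicative H2A genes, at chr13:21833024-21833475 and chr13:21810367-21810918 (RefSeq, GRCm38), held 81.8% of the summed TPM of all members. Hist1h2bc, an H2B gene at chr13:23684199-23692480, averaged 52.2 TPM (SD 25.3, lowest 20.8, highest 115). The single GENCODE model searched for it runs 742 bases past the stop codon without a match to the stem-loop. Hist1h2bk, another H2B gene, averaged 18.7 TPM (SD 6.15), Hist1h4d 12.2 TPM (SD 8.24) and Hist1h2ag 11.8 TPM (SD 3.13). Of all members, 7 averaged at least 10 TPM, 48 averaged under 5 TPM and 16 under 1 TPM. The 2 members with the longest A run next to the stem-loop were thus also the 2 with the highest level, but they are near copies and not independent. Hist1h3c, with a run of 7, averaged 5.03 TPM, and the 4 members with a run of 5 had a median of 3.09 TPM. The 23 members with a run of 3 had a median of 1.94 TPM (0.535 to 18.7). Whether the A run bears on the recovery of these mRNAs in poly(A) libraries was not tested.

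By class, H2A held 85.7% of the summed TPM in these poly(A) libraries, H2B 8.24%, H4 2.73%, H3 2.08% and H1 1.26%. Among the linker histones Hist1h1b, which encodes H1.5, was highest at 6.59 TPM (SD 1.43), followed by Hist1h1c at 2.50 TPM and Hist1h1a at 2.39 TPM. Hist1h1t, the testis-specific linker histone, averaged 0.81 TPM (SD 0.44). In H2A the third gene was Hist1h2ag, and in H2B Hist1h2bj with 4.52 TPM (SD 1.85). Of the H3 genes Hist1h3c averaged 5.03 TPM (SD 2.65), Hist1h3b 3.56 TPM (SD 1.78) and Hist1h3h 3.20 TPM (SD 1.34), and these 3 lay within each other's spread. Of the H4 genes Hist1h4d was followed by Hist1h4n with 6.72 TPM (SD 2.51) and Hist1h4c with 2.73 TPM (SD 0.88).

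**Figure D1:**
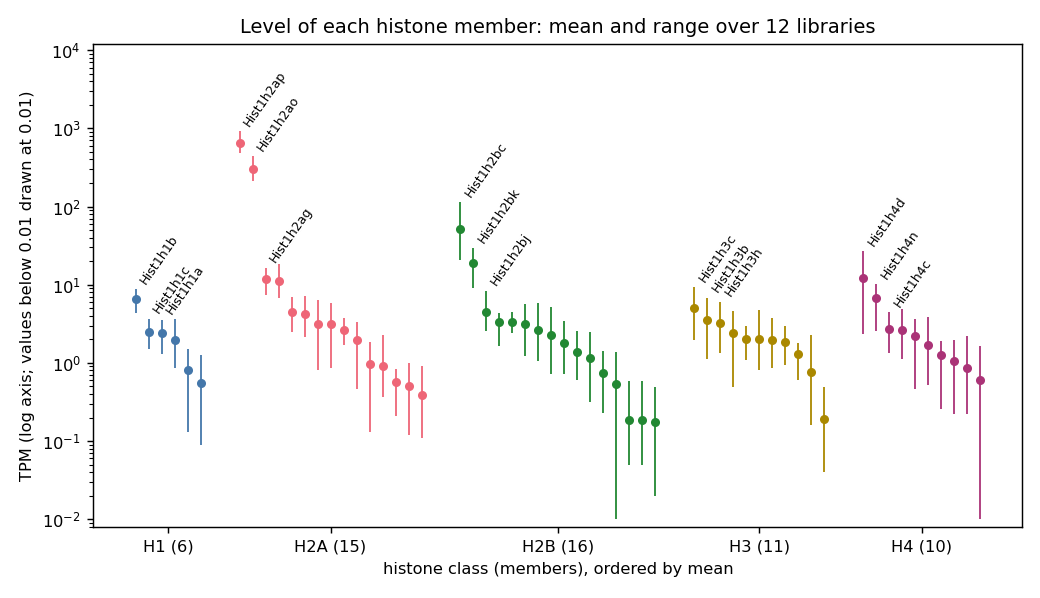
Mean TPM (points, log axis) and the lowest to highest value over 12 libraries (lines) of each of the 58 members, ordered within the 5 histone classes. Hist1h2ap and Hist1h2ao stand at 655 and 301 TPM, and 48 members average under 5 TPM.

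Replication-dependent histone genes are near copies of each other, which limits how reads can be given to single genes. Of the windows of 50 bases in a member's GENCODE transcript, a median of 49.6% also occurred in a transcript of another gene. Hist1h2ap shared 93.1% of its windows with Hist1h2ao. Hist1h2bq and Hist1h2br shared nearly all of theirs and held the same deposited values in all libraries. The authors' expected counts are RSEM estimates and can be fractions where reads match several genes, and 74.3% of the members' values were not whole numbers within a tolerance of 0.005, against 6.43% over all genes. By the same tolerance counts were whole in all 12 libraries for 10 members, namely Hist1h1a, Hist1h1b, Hist1h1t, Hist1h2ak, Hist2h2ac, Hist2h2bb, Hist2h2be, Hist2h4, Hist3h2ba and Hist4h4. No H3 gene is among these 10, so their medians do not cover that class. The values of single genes outside these 10 are therefore uncertain, and class sums are given beside them.

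By position, 48 members lie on chromosome 13 and hold 97.6% of the summed TPM. Another 7 lie on chromosome 3, 2 on chromosome 11 and 1 on chromosome 6. Many H2A and H2B genes of these clusters stand head to head and share the DNA between their starts as a promoter. Head-to-head pairs with a gap of at most 500 bases numbered 12, each of an H2A and an H2B gene, with gaps of 163 to 280 bases. Both genes were members in 10 of them. In 5 of the 10 pairs the partners' mean TPM in these poly(A) libraries differed by more than 5-fold. The direction was not the same in all 5. H2A was the higher partner in Hist1h2ap and Hist1h2br (655 against 0.185 TPM), in Hist1h2ao and Hist1h2bq (301 against 0.185 TPM) and in Hist2h2ac and Hist2h2be (1.96 against 0.175 TPM). In the last pair the GENCODE models are 520 and 2620 bases long, and TPM divides by length. Its counts had no common order, with 18 against 53 in ND_C replicate 2 and 30 against 5 in ND_siNT replicate 1. The pairs of Hist1h2ap and Hist1h2ao are near copies with the same values for Hist1h2bq and Hist1h2br, so they are not independent. H2B was the higher partner in Hist1h2ac and Hist1h2bc (0.57 against 52.2 TPM) and in Hist1h2ah and Hist1h2bk (0.39 against 18.7 TPM). In the other 5 pairs the levels were within 2.62-fold, as in Hist1h2an and Hist1h2bp with 3.13 and 3.16 TPM.

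**Figure D2:**
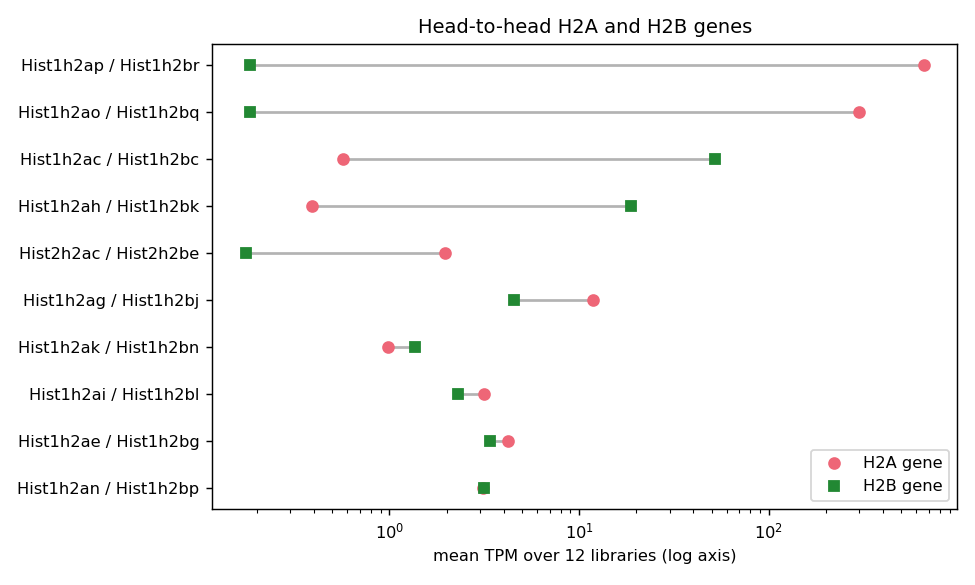
Mean TPM over 12 libraries (log axis) of the H2A gene (circle) and the H2B gene (square) of each of the 10 head-to-head pairs in which both are members. In 5 pairs the partners differ by more than 5-fold, with H2A higher in 3 of them and H2B higher in 2. The pairs of Hist1h2ap and Hist1h2ao are near copies and not independent. Hist2h2ac and Hist2h2be had no common order in counts.

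The windows from 250 bases before to 50 bases after the start (RefSeq, GRCm38.p6) were found for 53 members. Windows of head-to-head genes overlap, so the same site can count for both an H2A and an H2B gene. Those of near copies such as Hist1h2ap and Hist1h2ao are also much alike, so the counts below are not of independent windows. CCAAT on either strand occurred in 6 of 6 H1, 15 of 15 H2A, 14 of 14 H2B and 9 of 9 H3 promoters but in 3 of 9 H4 promoters, and in 37.4% of all 32851 mouse promoters of that length. TATAAA on the gene's strand occurred in 24 of 53, against 8.32% of all promoters. The motif ATTTGCAT, known as the octamer and bound by Oct-1 in H2B promoters, on either strand, occurred in 6 of 15 H2A and 6 of 14 H2B promoters and in no promoter of the other classes, against 1.74% of all. AAACACA, on either strand, occurred in 5 of 6 H1 promoters, against 7.18% of all. The windows of Hist1h2bk and Hist1h2ap are printed because they belong to pairs with unlike partners, with CCAAT, on either strand, and the octamer in capitals. The window of Hist1h2bk (chr13:22035571-22035870, + strand) spans the whole gap to Hist1h2ah and holds both motifs.
Hist1h2bk: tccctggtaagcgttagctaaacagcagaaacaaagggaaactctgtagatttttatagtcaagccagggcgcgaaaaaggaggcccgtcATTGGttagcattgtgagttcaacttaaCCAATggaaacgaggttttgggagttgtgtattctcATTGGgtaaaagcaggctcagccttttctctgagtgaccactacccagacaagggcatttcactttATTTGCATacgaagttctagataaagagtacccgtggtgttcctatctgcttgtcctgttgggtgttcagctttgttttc
The window of Hist1h2ap (chr13:21833426-21833725, - strand) holds CCAAT and none of the other 3 motifs.
Hist1h2ap: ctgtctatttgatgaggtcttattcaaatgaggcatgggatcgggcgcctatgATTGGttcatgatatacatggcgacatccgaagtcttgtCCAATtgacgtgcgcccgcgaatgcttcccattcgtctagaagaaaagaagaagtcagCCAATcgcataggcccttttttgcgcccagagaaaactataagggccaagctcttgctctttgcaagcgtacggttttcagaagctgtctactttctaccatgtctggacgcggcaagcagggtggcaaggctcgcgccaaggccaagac

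The comparison of siNampt with siNT asks whether these genes differed with the siRNA against Nampt, and no member passed the test. After the filter on low counts 56 members were tested among 14743 genes, all members except Hist1h2af and Hist1h4k. Hist1h2bq and Hist1h2br hold the same values but count separately, so 55 of the rows are distinct. Members that share reads are not independent of each other in the counts below. Over both diets, 0 of 56 members passed the adjusted threshold of 0.05 in edgeR's quasi-likelihood test, as did 0% of all genes tested. At an unadjusted p under 0.05 the fit had 2 members and 11.2% of all genes. The median log2 fold change of the members was -0.02, against 0.03 over all genes, with 26 higher and 30 lower. DESeq2 and limma also called 0 members here and in the other treatment and diet comparisons. The 2 dominant H2A genes together stood at 299 and 325 CPM in HFD_siNampt against 288 and 269 CPM in HFD_siNT, while in ND siNampt had 211 and 254 CPM and siNT 314 and 242 CPM. In HFD both siNampt libraries lay above both siNT libraries, and in ND the groups overlapped. Over both diets the sum of the pair gave a log2 difference of -0.05 (SE 0.14, adjusted p = 0.927).

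Members of smallest p were Hist1h2bl, Hist2h4 and Hist2h2be, none of which passed. Hist1h2bl, an H2B gene, stood at 0.16 and 0.16 CPM in HFD_siNampt against 0.24 and 0.73 CPM in HFD_siNT, while in ND siNampt had 0.32 and 0.62 CPM and siNT 0.72 and 1.07 CPM. Matched by diet and replicate number, it was lower with siNampt in 4 of 4 pairs (log2 -1.24, SE 0.55, adjusted p = 0.433), and without HFD_siNT replicate 2 the difference was -0.82. Hist2h4, an H4 gene, differed by -1.59 (SE 0.74, adjusted p = 0.447), and Hist2h2be, an H2B gene, by 1.30 (SE 0.79, adjusted p = 0.549). Hist2h4 reached at most 0.37 CPM in any library, so few counts lie behind its difference.

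Within each diet the result was alike in that 0 members passed the adjusted test, against 0% of all genes in both. In ND the median of siNampt over siNT was -0.04, and 0 members had an unadjusted p under 0.05, against 8.34% of genes. In HFD it was 0.03, with 0 members and 4.27% of genes. Smallest p in ND had Hist2h2ac (log2 -1.38, SE 0.77, adjusted p = 0.624), Hist2h4 (-1.81, SE 1.11, adjusted p = 0.661) and the linker histone gene Hist1h1a (-0.79, SE 0.51, adjusted p = 0.679). Leaving out 1 library gave -2.24 (without siNampt replicate 1) to -0.79 (without siNT replicate 1) for Hist2h2ac and -1.26 (without siNampt replicate 1) to -0.29 (without siNT replicate 2) for Hist1h1a. In HFD these were Hist1h2bl (-1.58, SE 0.86), Hist1h2ap (0.37, SE 0.21) and Hist1h2ai (1.23, SE 0.74), each with an adjusted p of 0.923. These rested on the siNT libraries: without HFD_siNT replicate 2 they were -0.62, 0.56 and 2.35, and without HFD_siNT replicate 1 they were -2.16, 0.20 and 0.60. The difference between the diets in the knockdown effect passed for 0 members and 0% of genes, and at an unadjusted p under 0.05 it had 1 member and 3.06% of genes. It had the smallest p for Hist1h2ap, at 0.69 (SE 0.30, unadjusted p = 0.0399, adjusted p = 1.00). With the reads of Hist1h2ap and Hist1h2ao summed, it was 0.42 (SE 0.28, unadjusted p = 0.165).

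The comparison of siNT with C sets the non-targeting siRNA against the control, and here 0 of 56 members and 0% of genes passed the adjusted test. The median of siNT over C was 0.21 for the members, against -0.01 for all genes, and it fell to -0.012 without HFD_siNT replicate 2 and to 0.021 with limma on log2(TPM + 1). Between single libraries of the same diet and batch, the members' median was 0.30 and 0.13 in HFD and -0.08 and -0.01 in ND (replicates 1 and 2). Such medians between single libraries were taken on log2 CPM with a pseudocount. It shrinks differences at low counts, so they are not on the scale of the fitted medians. Hist1h2ao had the smallest p (log2 0.39, SE 0.17, unadjusted p = 0.0376, adjusted p = 0.984), and it was the 1 member under an unadjusted 0.05, against 4.4% of genes. Its values were 156 and 98.5 CPM in HFD_siNT against 73.0 and 106 CPM in HFD_C, and 117 and 91.8 CPM in ND_siNT against 101 and 71.2 CPM in ND_C. The groups overlapped. Without HFD_siNT replicate 1 the difference was 0.24, and that library had the smallest fragment gap of all 12 (186 bases between length and effective length, a measure of fragment size, where the highest was 231), whose part in the result was not tested. Summed with Hist1h2ap the difference was 0.25 (SE 0.14). Hist2h2be (-1.40, SE 0.80) and Hist2h2ac (0.75, SE 0.55) followed, each with an adjusted p of 0.984. Without ND_C replicate 2 the value of Hist2h2be was -0.76, and without ND_siNT replicate 1 that of Hist2h2ac was 0.49.
For siNampt over C, which uses the same C libraries, the median was 0.09, and 0 members and 0% of genes passed. Here 0 members and 3.8% of genes had an unadjusted p under 0.05. Hist1h2bl (-0.80, SE 0.55), Hist1h2ao (0.24, SE 0.17) and the H3 gene Hist1h3h (0.59, SE 0.45) had the smallest p, each with an adjusted p of 0.999. Leaving out 1 library gave -1.09 to -0.48 for Hist1h2bl, 0.12 to 0.38 for Hist1h2ao and 0.27 to 0.88 for Hist1h3h.

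**Figure D3:**
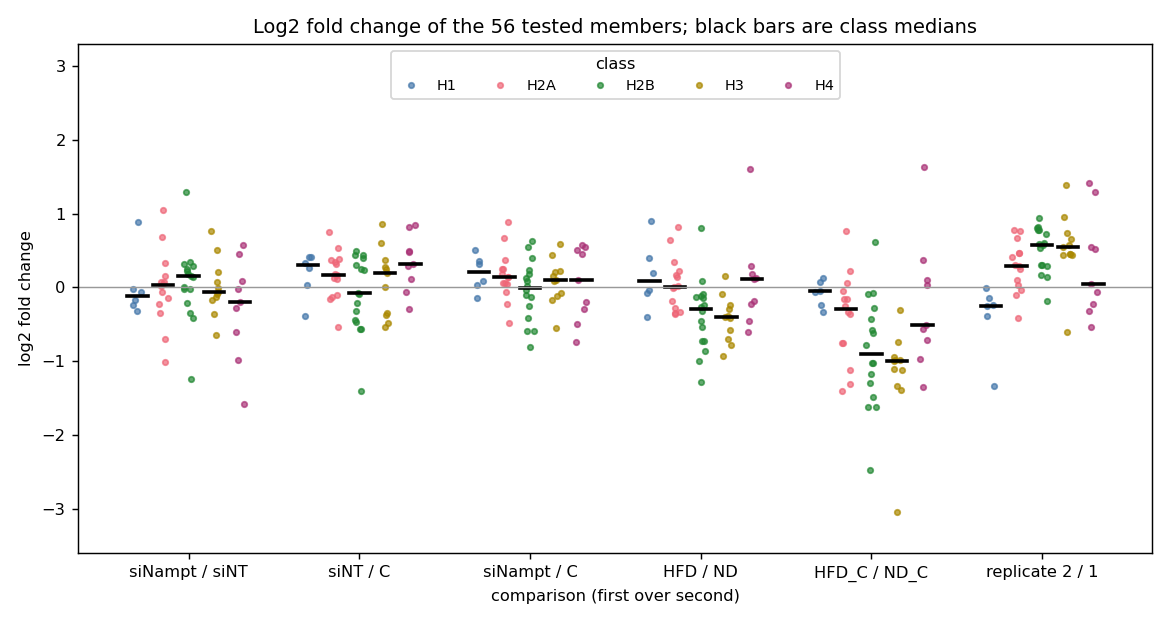
Log2 fold change (vertical axis) of the 56 tested members in 6 comparisons, with points coloured by histone class and black bars at class medians. The class medians for siNampt over siNT lie between -0.19 and 0.15, those of H2B and H3 lie lowest for HFD_C over ND_C and highest for replicate 2 over 1, and comparisons that share siNT, C or diet libraries are not independent.

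The comparison of HFD with ND asks whether the histone genes differed between the obese and normal weight arms of the title, and 0 of 56 members and 0% of genes passed. The median of the members was -0.19, against 0.00 for all genes, and 37 of 56 were lower in HFD. Higher in HFD were 33.9% of the members and 50.8% of all genes. By class, 14 of 16 H2B genes and 10 of 11 H3 genes were lower, with medians of -0.29 and -0.41, while the medians of H1, H2A and H4 were 0.08, 0.01 and 0.12. The last 3 had no steady sign, since leaving out 1 library gave -0.0042 to 0.18 for H1, -0.09 to 0.15 for H2A and -0.24 to 0.27 for H4, and those of H2B and H3 stayed below 0 (-0.45 to -0.21 and -0.60 to -0.28). At an unadjusted p under 0.05 there were 3 members, against 3.22% of genes, namely Hist1h4d, Hist1h2bl and Hist1h2ae. In the controls alone, HFD_C over ND_C, the median was -0.60, against -0.01 for all genes, and 46 of 56 members were lower, all 11 H3 genes among them. Higher were 17.9% of the members and 48.3% of all genes. No member and 0% of genes passed there either. Between single libraries of the same treatment and batch, the members' median of HFD over ND was -0.40 and -0.29 in C (replicates 1 and 2). It was -0.05 and 0.17 in siNT and 0.12 and 0.02 in siNampt, with no common sign in the siRNA groups. These medians again used log2 CPM with a pseudocount, so their size is not to be set against the fitted -0.60. Whether C differed from the siRNA groups in this was not tested. At an unadjusted p under 0.05 the fit of HFD_C over ND_C had 2 members and 2.81% of genes. The median of the controls moved with single libraries, to -0.98 without HFD_C replicate 2 and to -0.40 without ND_C replicate 2. For members with a summed count of at least 600 it was -0.33, and for the 10 members with whole counts it was -0.25.

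The H3 genes together stood at 4.98 and 8.96 CPM in HFD_siNampt, 4.62 and 8.09 CPM in HFD_siNT and 3.20 and 5.50 CPM in HFD_C. In ND they stood at 4.43 and 9.93 CPM with siNampt, 6.08 and 8.64 CPM with siNT, and 7.97 and 10.0005 CPM in C. The H3 sum was lower in HFD than in ND in 5 of 6 pairs of the same treatment and replicate number, with overlapping ranges. In the controls the 3 members of smallest p were Hist1h4d (1.64, SE 0.71), Hist1h4n (-1.35, SE 0.60) and Hist1h3f (-3.04, SE 1.42), each with an adjusted p of 1.00. Hist1h3f, an H3 gene, was at 0.03 and 0.02 CPM in HFD_C against 0.34 and 0.05 CPM in ND_C, and without ND_C replicate 1 its estimate was -0.94.

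**Figure D4:**
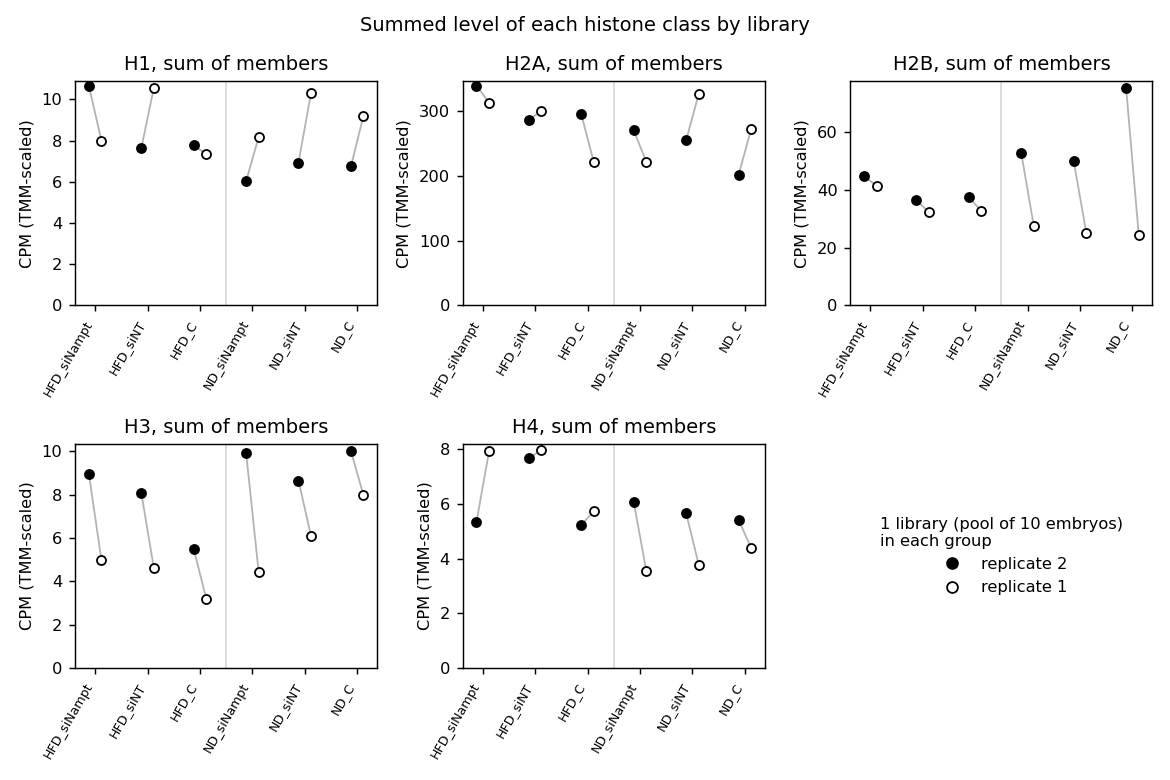
Summed TMM-scaled CPM of the members of each histone class (vertical axis) in each library, by group, with replicate 2 as filled and replicate 1 as open circles. H2B and H3 sums are higher in replicate 2 in 6 of 6 groups, while H2A, which is mostly Hist1h2ap and Hist1h2ao, is higher in 3 of 6.

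Hist1h4d, an H4 gene at chr13:23581568-23581969, was the member of smallest p between the diets. It stood at 4.34 and 1.39 CPM in HFD_siNampt, 4.25 and 2.37 CPM in HFD_siNT and 3.42 and 2.08 CPM in HFD_C. In ND it stood at 1.17 and 0.76 CPM with siNampt, 0.41 and 1.77 CPM with siNT, and 0.62 and 1.15 CPM in C. It was higher in HFD in 6 of 6 pairs of the same treatment and replicate number, although the ranges overlapped (1.39 to 4.34 CPM in HFD and 0.41 to 1.77 CPM in ND). The log2 difference of 1.60 (SE 0.38, unadjusted p = 0.000752) did not pass over all genes (edgeR adjusted p = 1.00). Without the filter on low counts it passed, with an edgeR adjusted p of 0.000194, and the share of all genes that passed there is not given here. In the diet by replicate fit below, dropping the filter raised the genes past the threshold from 16 to 517. Within replicate 1 the diet difference of Hist1h4d was 2.42 (SE 0.45, adjusted p = 0.111), and within replicate 2 it was 0.68 (SE 0.43, adjusted p = 0.682).
Hist1h2ae, an H2A gene at chr13:23570663-23571220, stood at 2.46 and 1.04 CPM in HFD_siNampt, 2.38 and 2.23 CPM in HFD_siNT and 1.75 and 1.51 CPM in HFD_C. In ND it stood at 0.78 and 1.43 CPM with siNampt, 0.93 and 1.34 CPM with siNT, and 0.73 and 1.18 CPM in C. In replicate 1 the diets did not overlap for Hist1h2ae, and in replicate 2 they did. Its difference was 0.81 (SE 0.29, adjusted p = 1.00) over both replicates, 1.43 (SE 0.37, adjusted p = 0.393) in replicate 1 and 0.24 (SE 0.36, adjusted p = 0.911) in replicate 2. Hist1h2bl was the third member, at -1.29 (SE 0.45, adjusted p = 1.00), and lower in HFD in 6 of 6 pairs.

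The replicate numbers, which are the batch tags, were compared in a model that kept diet and treatment. For replicate 2 over replicate 1 the median of the members was 0.44, against 0.00 for all genes, and 41 of 56 were higher (73.2%, against 49.6% of all genes). By class, 15 of 16 H2B, 10 of 11 H3 and 11 of 14 H2A genes were higher, with medians of 0.58, 0.55 and 0.29, and 6 of 6 H1 genes were lower, with a median of -0.25. The H1 sum was nonetheless higher in replicate 2 in 2 of 6 groups, at 7.79 against 7.34 CPM in HFD_C and 10.7 against 8.0 CPM in HFD_siNampt. Leaving out 1 library gave H1 medians of -0.40 (without HFD_siNampt replicate 2) to -0.14 (without ND_C replicate 1, with 2 of 6 genes higher) and H2A medians of 0.16 (without HFD_C replicate 1) to 0.44. For the 10 members with whole counts the median was -0.22, the other direction, and for members with a summed count of at least 600 it was 0.10. Those 10 include the H1 genes Hist1h1a, Hist1h1b and Hist1h1t and no H3 gene, and the part of this class make-up was not tested. Only Hist1h3c passed the adjusted test, 1 of 56 members, against 0.549% of all genes (81 of 14743). At an unadjusted p under 0.05 there were 7 members (12.5%), against 9.95% of genes.
Hist1h3c, an H3 gene at chr13:23745042-23745521, stood in replicates 2 and 1 at 1.93 and 0.79 CPM in HFD_siNampt, 2.02 and 0.62 CPM in HFD_siNT and 1.22 and 0.53 CPM in HFD_C. In ND it stood at 1.86 and 0.75 CPM with siNampt, 2.39 and 0.74 CPM with siNT, and 2.41 and 1.05 CPM in C. It was higher in replicate 2 in 6 of 6 groups, with no overlap between 1.22 to 2.41 and 0.53 to 1.05 CPM. The log2 difference was 1.39 (SE 0.27, edgeR adjusted p = 0.0315), and it lay between 1.33 and 1.52 when 1 library was left out. The adjusted p stayed under 0.05 only without ND_C replicate 1 or HFD_C replicate 2, and leaving out any of the other 10 libraries ended the call. Hist1h2bk (0.73, SE 0.18, adjusted p = 0.115) and the H4 gene Hist1h4b (1.42, SE 0.48, adjusted p = 0.283) followed, and each was higher in replicate 2 in 6 of 6 groups. Hist1h2bk stood at 5.89 to 7.63 CPM in replicate 2 against 2.62 to 5.36 CPM in replicate 1. Hist1h1t, whose counts were whole, was lower in replicate 2 in 6 of 6 groups, at 0.06 to 0.44 CPM in replicate 2 against 0.43 to 0.78 CPM in replicate 1, with overlap.

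Hist1h2bc, the H2B gene of highest level, was split by replicate number in ND. In replicates 2 and 1 it stood at 28.2 and 30.0 CPM in HFD_siNampt, 21.8 and 22.6 CPM in HFD_siNT and 23.5 and 25.9 CPM in HFD_C. In ND it stood at 37.0 and 16.9 CPM with siNampt, 34.7 and 13.0 CPM with siNT, and 56.1 and 10.4 CPM in C. The 3 ND libraries of replicate 2 were thus the highest of all 12, and the 3 of replicate 1 the lowest. Replicate 2 over replicate 1 was -0.09 (SE 0.20, adjusted p = 0.925) in HFD and 1.67 (SE 0.20, adjusted p = 0.00175) in ND. The difference between the diets in this effect was -1.77 (SE 0.28, adjusted p = 0.0348), in an edgeR fit with a term for each diet and replicate number that was chosen after seeing the data. For that difference 1 of 56 members and 0.109% of genes passed; for replicate 2 over replicate 1 it was 0 members and 0.421% of genes in HFD and 1 member and 0.834% in ND. With limma on log2(TPM + 1) the adjusted p was 0.0582. Leaving out 1 library gave estimates from -1.98 to -1.47. The call was lost without either ND_siNT library, ND_siNampt replicate 1, either HFD_C library, either HFD_siNT library or HFD_siNampt replicate 1. In this fit HFD over ND was 0.96 (SE 0.20, adjusted p = 0.192) in replicate 1 and -0.80 (SE 0.20, adjusted p = 0.149) in replicate 2, where 0 members passed in either, against 0.00678% and 0.0407% of genes.

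**Figure D5:**
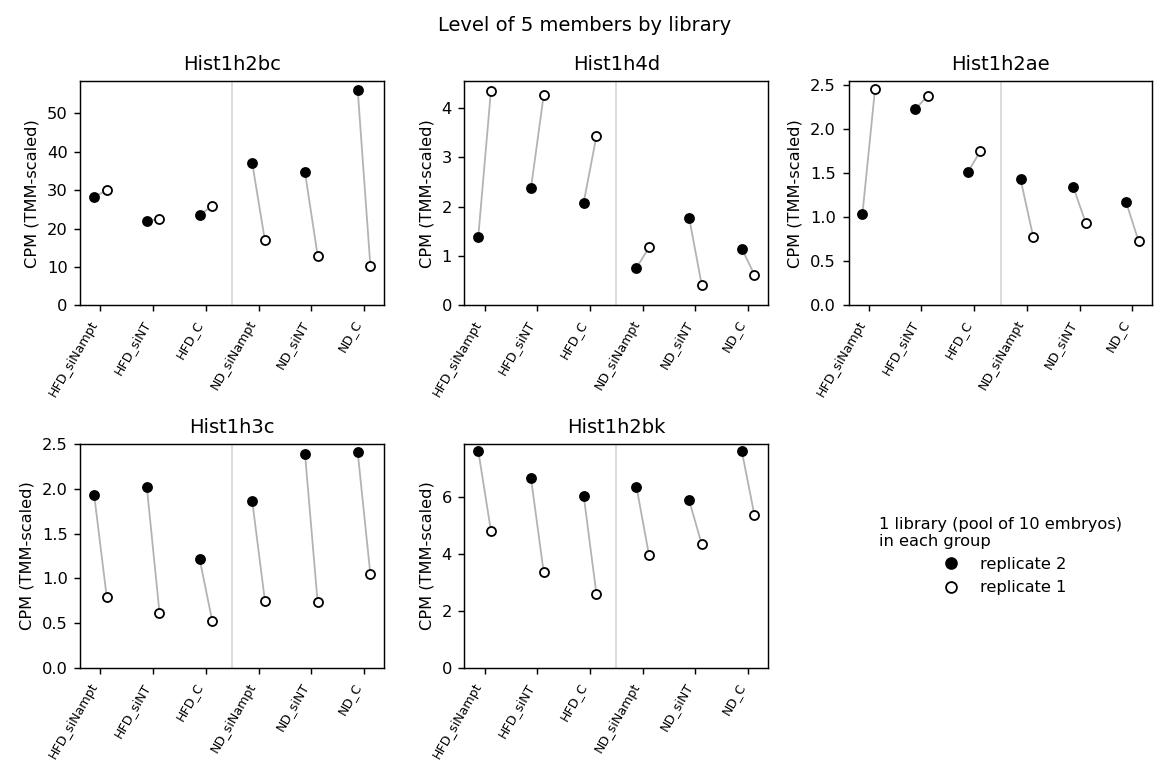
TMM-scaled CPM (vertical axis) of Hist1h2bc, Hist1h4d, Hist1h2ae, Hist1h3c and Hist1h2bk in each library, by group, with replicate 2 as filled and replicate 1 as open circles. Hist1h3c and Hist1h2bk are higher in replicate 2 in 6 of 6 groups, and Hist1h2bc is so in the 3 ND groups.

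Genes that act with these histones were taken from lists. Of 23 genes of histone mRNA processing, among them Slbp, 0 passed the adjusted test in the comparisons of treatment, of diet and of replicate 2 with replicate 1; the fit of diet by replicate number was not summarised for the lists. The same held for 12 tested replacement histone genes, 33 histone chaperone genes and 48 genes of DNA replication. Their median log2 fold changes of siNampt over siNT were 0.04, 0.20, -0.04 and 0.05, and those of HFD over ND were -0.01, 0.00, 0.00 and -0.02. For replicate 2 over replicate 1 they were -0.06, 0.03, -0.01 and 0.05, against 0.44 for the histone members. That member median was smaller for members with at least 600 counts and negative for those with whole counts, as given above. In the same order, 30.4%, 50%, 45.5% and 68.8% of the listed genes were higher in replicate 2. For the histone members it was 73.2% and for all genes 49.6%. Non-polyadenylated small RNAs, 127 genes in the tables, summed to 0.40 to 1.05 CPM.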

How the data were processed

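The 12 libraries were analysed, 2 for each of 6 groups, and groups were read from the labels. The authors deposited RSEM gene tables with expected counts, TPM and FPKM per the file headers, and FPKM was not used. Per the submitters' processing notes, STAR 2.7.10, RSEM 1.2.28 and mm10 were used; settings, strandedness and read trimming are not given in the labels or file headers. The deposited expected counts divide reads between near-identical genes, which touches most of the members. TPM, by the authors, divides by length and served to compare levels between genes.

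Expected counts were rounded to whole numbers and tested with edgeR 4.0.16 (R 4.3.3) by the quasi-likelihood test, with TMM scaling, a filter on low counts (filterByExpr, minimum count 10) and Benjamini-Hochberg adjustment over 14743 genes, with a threshold of 0.05, two-sided. Treatments and diets were tested in an additive model, effects within a diet in a model of 6 group means, and the replicate number as an added term. The labels tag the replicate number as a batch, so equal numbers pair libraries across groups. Correlations of the deviations (replicate 2 minus replicate 1) between groups were -0.0889 to 0.363 over all genes, above 0.1 in 8 of 15 pairs of groups, and -0.234 to 0.504 over the members, above 0.1 in 10 of 15. The replicate block was an alternative fit. DESeq2 1.42.0 and limma 3.58.1 were alternatives. CPM values are scaled by TMM. Medians between single libraries and the correlations above used log2 CPM with a pseudocount. The tests were checked on simulated data. Members and lists were chosen with earlier results of these data known. Members named were the 3 of highest mean TPM in each class, those past the threshold or with the 3 smallest p in each comparison, Hist1h1t, and those nearest the count limit; head-to-head partners, sequences and the diet by replicate fit were chosen after values were seen.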

Additional observations from a re-analysis of the deposited data

Results flagged for a closer look

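Hist1h2bc was set apart because its difference between replicate numbers was not the same in the 2 diets by a test of that difference itself. That fit was chosen after seeing the data, so its adjusted p is not that of a planned test. Replicate 2 over replicate 1 was -0.09 (SE 0.20) on the log2 scale in HFD and 1.67 (SE 0.20) in ND, and the difference between them was -1.77 (SE 0.28, edgeR adjusted p = 0.0348). The 6 HFD libraries lay between 21.8 and 30.0 CPM, while the ND libraries lay at 34.7 to 56.1 CPM in replicate 2 and at 10.4 to 16.9 CPM in replicate 1. The adjusted p ranged from 0.0154 to 0.138 when 1 library was left out. Its cause was not tested.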

How the results depend on the processing

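With 1 library left out, the members' median of siNampt over siNT ranged from -0.13 to 0.12, of siNT over C from -0.012 to 0.30, of siNampt over C from -0.10 to 0.24 and of HFD over ND from -0.26 to -0.08. Within ND siNampt over siNT ranged from -0.41 to 0.22, within HFD from -0.20 to 0.13, their difference from -0.20 to 0.47, HFD_C over ND_C from -0.98 to -0.40 and replicate 2 over 1 from 0.30 to 0.53. The count of members past the threshold ranged from 0 to 1 for replicate 2 over 1 and from 0 to 1 for the difference of this effect between diets, and was 0 in the other comparisons.

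A filter of at least 5 CPM in 2 libraries, which left 4 members, gave medians of 0.12 for siNampt over siNT, 0.029 for siNT over C, 0.37 for siNampt over siNT within HFD, 0.28 for the difference between diets and -0.20 for HFD_C over ND_C. Limma on log2(TPM + 1) and log2(TPM + 0.1) gave 0.13 and 0.18 for siNampt over siNT, 0.021 and 0.022 for siNT over C, and 0.18 and 0.23 within HFD. With a pseudocount of 1 it gave -0.33 for HFD_C over ND_C. The 10 members with whole counts gave -0.33 for siNampt over siNT, -0.56 within ND, -0.15 within HFD, 0.38 for their difference, -0.25 for HFD_C over ND_C and -0.22 for replicate 2 over 1. Members with at least 600 counts gave 0.0026 within HFD, -0.33 for HFD_C over ND_C and 0.10 for replicate 2 over 1. A fit on the compared libraries alone gave 0.067 within HFD.

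Without a filter on low counts 1 member passed for HFD over ND. For replicate 2 over 1, 2 members passed without the filter, 2 with DESeq2, 2 with limma at either pseudocount and 0 with the 5 CPM filter. Limma called 0 members and 4 genes in all for the diet by replicate difference. For that difference 517 genes passed without the filter and 291 with DESeq2, against 16 in the main fit. The shares of all genes in the other alternative fits are not given here. By counts not divided by length, H1 held 2.47%, H2A 81.8%, H2B 11.9% and H4 1.71% of the members' total. The cause of these shifts was not tested.

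With the replicate number, the batch tag, as a block, the fit gave a median of 0.077 for siNampt over siNT within HFD and -0.15 for HFD over ND, and it changed no call.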
